A study of Rattus norvegicus with 12 samples.

Results

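The comparison described here sets 4 libraries of medial prefrontal cortex (mPFC) from rats with chronic prefrontal activation (CPA) that then received RO6958375, a selective peptide agonist of the oxytocin receptor (CPA+RO), against 4 libraries of control rats given vehicle (control+veh), over all genes of the count table. These 8 libraries are part of a series of 12, whose other 4 come from CPA rats given vehicle (CPA+veh) and enter the shared fit and the values given side by side. All rats were male Sprague Dawley rats, and each library came from 1 rat. In CPA+RO and CPA+veh, an AAV8 carrying hM3D(Gq)-mCherry behind a mouse CaMKIIa promoter, which is active mainly in excitatory neurons, had been injected into the mPFC. In control+veh the virus carried a fluorophore alone. Every group drank CNO, the ligand of hM3Dq, for 10 days, and was then treated once daily for 7 days, with RO6958375 in CPA+RO and with vehicle in CPA+veh and control+veh. The tissue was dissected from slices that had been used for recordings. No control rats given RO6958375 were analysed here, so CPA+RO and control+veh differ in virus, activation and agonist together, and these cannot be told apart in this comparison.

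The oxytocin receptor is a Gq-coupled receptor for the hypothalamic peptide oxytocin, and in the cortex it is carried by a minority of neurons, many of them interneurons. Its activation stimulates phospholipase C and raises intracellular calcium, which is also the route by which hM3Dq excites neurons when CNO binds. The mPFC is a cortical area known for its part in social behaviour and executive control. The comparison asks which transcripts remain away from control levels after both the activation and the agonist treatment, and which stand apart only in the rats that received the agonist.

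The libraries held 67837257 to 79006972 counts in CPA+RO, 64993543 to 74277096 in CPA+veh and 68084135 to 77291797 in control+veh. Of the 29009 genes listed, 19094 passed the filter on low counts and were tested. Levels are given as CPM, counts scaled by TMM library sizes to a common total, and a gene is called at a Benjamini-Hochberg adjusted p under 0.05 in edgeR's quasi-likelihood test over all 12 libraries. Along the principal component of largest variance (16.5%) CPA+RO lay at 3.34 to 13.2, CPA+veh at 0.62 to 31.8 and control+veh at -31.8 to -17.6. The CPA+RO libraries were the most alike, with a median SD over genes of 0.124 on the log2 CPM scale, against 0.19 in CPA+veh and 0.144 in control+veh. Deviations from the control mean correlated with gene length at Spearman coefficients of -0.04 to 0.09 in CPA+RO, -0.36 to 0.14 in CPA+veh and -0.26 to 0.19 in control+veh, across genes. In tissue libraries like these, fewer cells of a type and less RNA per cell cannot be told apart.

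Few genes were called between CPA+RO and control+veh, and most of those were transcripts of low level in control+veh that were nearly absent in CPA+RO. With 4 rats per group, genes that miss the threshold may still differ, and DESeq2 called 22 genes higher and 61 lower. In total 21 genes were called (0.11% of those tested), 2 of them higher (0.0105%) and 19 lower (0.0995%) in CPA+RO. Of these, 9 carry gene symbols and 12 only LOC identifiers. In every 1 of the 21, the 4 CPA+RO rats and the 4 control+veh rats did not overlap. Over all genes 2.83% had every CPA+RO library above and 2.74% every CPA+RO library below the control+veh libraries. The 21 genes were called on these same libraries, so their separation is a description and no further support. The 19 lower genes averaged 0 to 3.14 CPM in CPA+RO and 0.411 to 11.6 CPM in control+veh, and 16 of them were under 0.3 CPM in CPA+RO. The median log2 fold change of all genes was 0.00, and 50% of them were above 0.

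**Figure D1:**
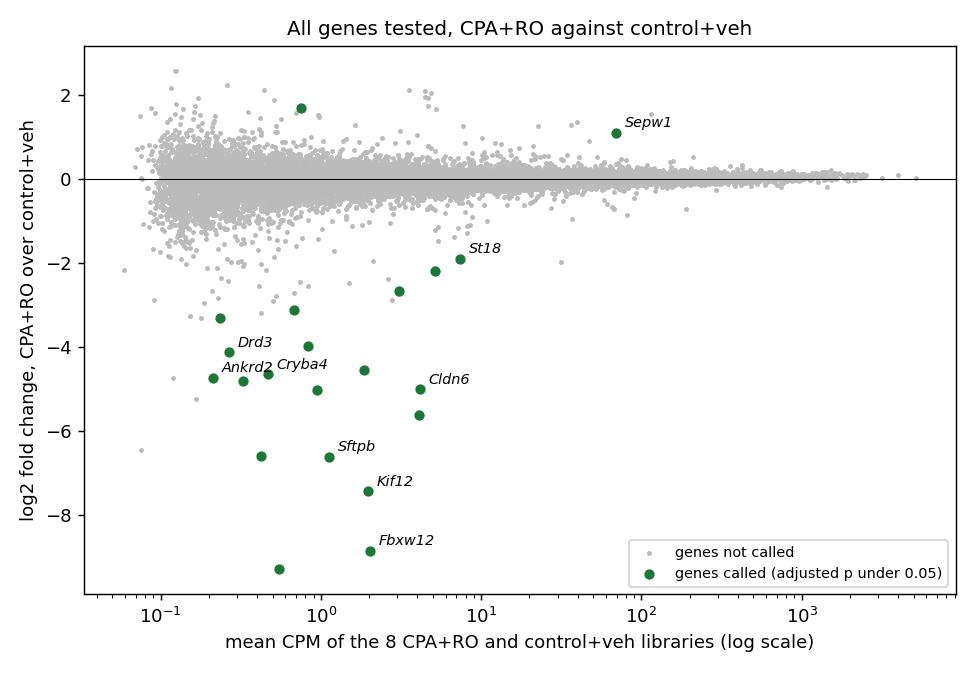
Each point is 1 of the 19094 genes tested, with its mean CPM over the 8 CPA+RO and control+veh libraries (log scale) against its log2 fold change in CPA+RO over control+veh, and green points are the 21 called genes. The called genes lie mostly below 0 and left of 10 CPM, Fbxw12 lies lowest of those labelled, and Sepw1 is the only called gene of high level.

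The start regions of the 4 named genes of smallest adjusted p, all of them lower in CPA+RO, are shown because these transcripts were nearly absent together in the same rats. Each is 250 bases before to 50 bases after the annotated start, 5′ to 3′, from RefSeq on GRCr8, which is not the build used for the counts. Capitals mark TATAAA or TGACTCA on either strand, and for Fbxw12 the first of 2 listed starts is given.
Fbxw12 (chr8:118680516-118680815, minus strand): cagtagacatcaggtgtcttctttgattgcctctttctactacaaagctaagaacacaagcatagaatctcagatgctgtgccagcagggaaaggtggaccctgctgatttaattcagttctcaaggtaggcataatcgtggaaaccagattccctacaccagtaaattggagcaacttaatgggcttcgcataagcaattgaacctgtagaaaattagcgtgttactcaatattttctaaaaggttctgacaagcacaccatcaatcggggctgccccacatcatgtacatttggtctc
Cldn6 (chr10:13215558-13215857, plus strand): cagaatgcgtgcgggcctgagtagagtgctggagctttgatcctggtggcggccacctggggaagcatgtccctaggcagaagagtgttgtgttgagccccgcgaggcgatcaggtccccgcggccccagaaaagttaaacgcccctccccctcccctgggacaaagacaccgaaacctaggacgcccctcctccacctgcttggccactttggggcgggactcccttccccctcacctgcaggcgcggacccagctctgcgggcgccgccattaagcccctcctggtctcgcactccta
Kif12 (chr5:81618320-81618619, minus strand): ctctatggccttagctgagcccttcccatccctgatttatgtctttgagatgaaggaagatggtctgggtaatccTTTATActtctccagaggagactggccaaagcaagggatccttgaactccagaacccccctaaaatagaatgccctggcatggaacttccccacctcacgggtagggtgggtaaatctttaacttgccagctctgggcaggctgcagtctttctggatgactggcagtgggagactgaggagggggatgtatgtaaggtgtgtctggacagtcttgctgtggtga
Sftpb (chr4:105917338-105917637, plus strand): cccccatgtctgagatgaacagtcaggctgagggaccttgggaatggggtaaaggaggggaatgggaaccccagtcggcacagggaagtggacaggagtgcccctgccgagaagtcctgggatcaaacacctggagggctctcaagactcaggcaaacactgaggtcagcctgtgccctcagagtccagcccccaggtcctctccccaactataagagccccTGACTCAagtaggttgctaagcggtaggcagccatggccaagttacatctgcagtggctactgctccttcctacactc
Of these windows, Kif12 holds TATAAA on the reverse strand, from base 76 of the window, and Sftpb holds TGACTCA, the core of an AP-1 site. Among the 13 called genes with a listed start region, 4 hold TATAAA (Ankrd2, Kif12, LOC108350082 and Sepw1), against 9.07% of 13762 tested genes, and 3 hold TGACTCA (LOC102548142, LOC103691283 and Sftpb), against 4.18%. The cAMP response element TGACGTCA and the E-box CACGTG, both searched on both strands, were in none of the 13, against 2.95% and 9.35% of tested genes. These counts cover both directions, as Sepw1 and LOC103691283 were higher in CPA+RO and the other genes named with a motif were lower. The motifs were counted as a description only. Of the 19 lower genes, 12 are in the GRCr8 gene table, on 9 chromosomes.

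The lower genes with symbols belong to unrelated families, several of them known from tissues other than cortex. Fbxw12, an F-box protein that can recruit substrates to a ubiquitin ligase, had 0.0288, 0, 0 and 0 CPM in CPA+RO, against 3.42, 2.48, 7.30 and 2.86 CPM in control+veh. That is 2 counts in all CPA+RO libraries against 1192 in control+veh, a pooled level of 0.171% of control (exact binomial 95% interval on read pairs 0.0043% to 0.952%, adjusted p = 1.26e-05 in edgeR). Kif12, a kinesin motor known from kidney, had 0.0288, 0, 0.0297 and 0.0255 CPM in CPA+RO, against 3.83, 2.19, 6.51 and 3.02 CPM in control+veh. Its pooled level in CPA+RO was 0.532% of control (0.109% to 1.56%, adjusted p = 0.000103 in edgeR). For both genes a CPA+RO library holds at most a pair of counts, so that the fitted log2 fold changes, -8.85 and -7.43, rest on the prior count.

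Cldn6, a tight-junction claudin typical of embryonic epithelia, had 0.201, 0.246, 0.268 and 0.280 CPM in CPA+RO, against 5.79, 5.44, 14.8 and 6.10 CPM in control+veh. It averaged 0.249 ± 0.0346 CPM in CPA+RO and 8.02 ± 4.5 CPM in control+veh (SD, n = 4 each), with a log2 fold change of -5.00 (SE 0.36, adjusted p = 1.26e-05 in edgeR). No other claudin was called, and of the 14 tested 7 lay above and 7 below 0. Sftpb, surfactant protein B of the lung, had 0, 0.0546, 0.0297 and 0 CPM in CPA+RO, against 2.10, 1.31, 4.12 and 1.31 CPM in control+veh (log2 fold change -6.61, SE 0.70, adjusted p = 0.000622 in edgeR). Of the list of mesenchymal and epithelial markers from outside the brain that holds Sftpb, 10 were tested, 4 lay above and 6 below 0, and no other was called.

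St18 and Drd3 are the lower genes with known roles in the nervous system. St18, a zinc-finger transcription factor of the Myt1 family, had 3.28, 3.38, 3.33 and 2.57 CPM in CPA+RO, against 9.03, 8.40, 18.2 and 10.9 CPM in control+veh. It fell to 3.14 ± 0.383 CPM in CPA+RO, against 11.6 ± 4.48 CPM in control+veh (SD, n = 4 each), with a log2 fold change of -1.89 (SE 0.23, adjusted p = 0.002 in edgeR). It was the only called member among 33 neurogenesis and neuronal differentiation factors, whose median log2 fold change was 0.06. Drd3, the dopamine D3 receptor, had 0.0288, 0.0273, 0 and 0.0509 CPM in CPA+RO, against 0.255, 0.373, 0.898 and 0.494 CPM in control+veh. These are 8 counts in CPA+RO against 150 in control+veh (log2 fold change -4.12, SE 0.57, adjusted p = 0.00601 in edgeR), a low level in both groups. The D2 receptor Drd2 was not called and had 8.93, 9.38, 7.47 and 7.14 CPM in CPA+RO, against 6.58, 7.64, 6.28 and 4.99 CPM in control+veh (log2 fold change 0.37, unadjusted p = 0.0129).

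Cryba4, a lens beta-crystallin, had 10 counts over the CPA+RO libraries against 265 over control+veh (log2 fold change -4.65, adjusted p = 0.0205 in edgeR). Ankrd2, an ankyrin-repeat protein of striated muscle, had 4 counts in CPA+RO against 122 in control+veh (log2 fold change -4.73, adjusted p = 0.0205 in edgeR). Both calls are less firm than those above: Cryba4 lost its call without CPA+RO replicates 1, 2 or 3 or control+veh replicates 1 or 3 (adjusted p = 0.0627 to 0.0978), and Ankrd2 without any 1 CPA+RO library or control+veh replicates 1 or 3 (0.0694 to 0.0978). Of the lower genes known only by identifier, LOC103692471 averaged 0.160 CPM in CPA+RO and 8.04 CPM in control+veh (log2 fold change -5.62, adjusted p = 1.47e-05 in edgeR). LOC108352098 kept a clear level, 1.85 CPM in CPA+RO and 8.41 CPM in control+veh (log2 fold change -2.18, adjusted p = 0.00138 in edgeR). For LOC103690061 the log2 fold change was -4.56 (adjusted p = 0.000247 in edgeR), and for LOC102554241 it was -5.03 (adjusted p = 0.00138).

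In the control group 1 rat was highest for nearly all of these genes. Control+veh replicate 3 had the highest CPM of its group in 18 of the 19 lower genes, at 1.44 to 1.86 times the control+veh mean of these 18, while the other control+veh rats lay at 0.401 to 1.12 times that mean. Its part in the result was measured by leaving it out: 15 genes were then called lower and 1 higher, of which 14 and 1 were among the genes called with it. Fbxw12, Cldn6, Kif12, Sftpb, St18, LOC103692471, LOC103690061, LOC108352098 and LOC102554241 stayed called in all 30 alternatives run, including without each library in turn. Whether virus, dissection or cohort has a part in these differences was not tested.

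**Figure D2:**
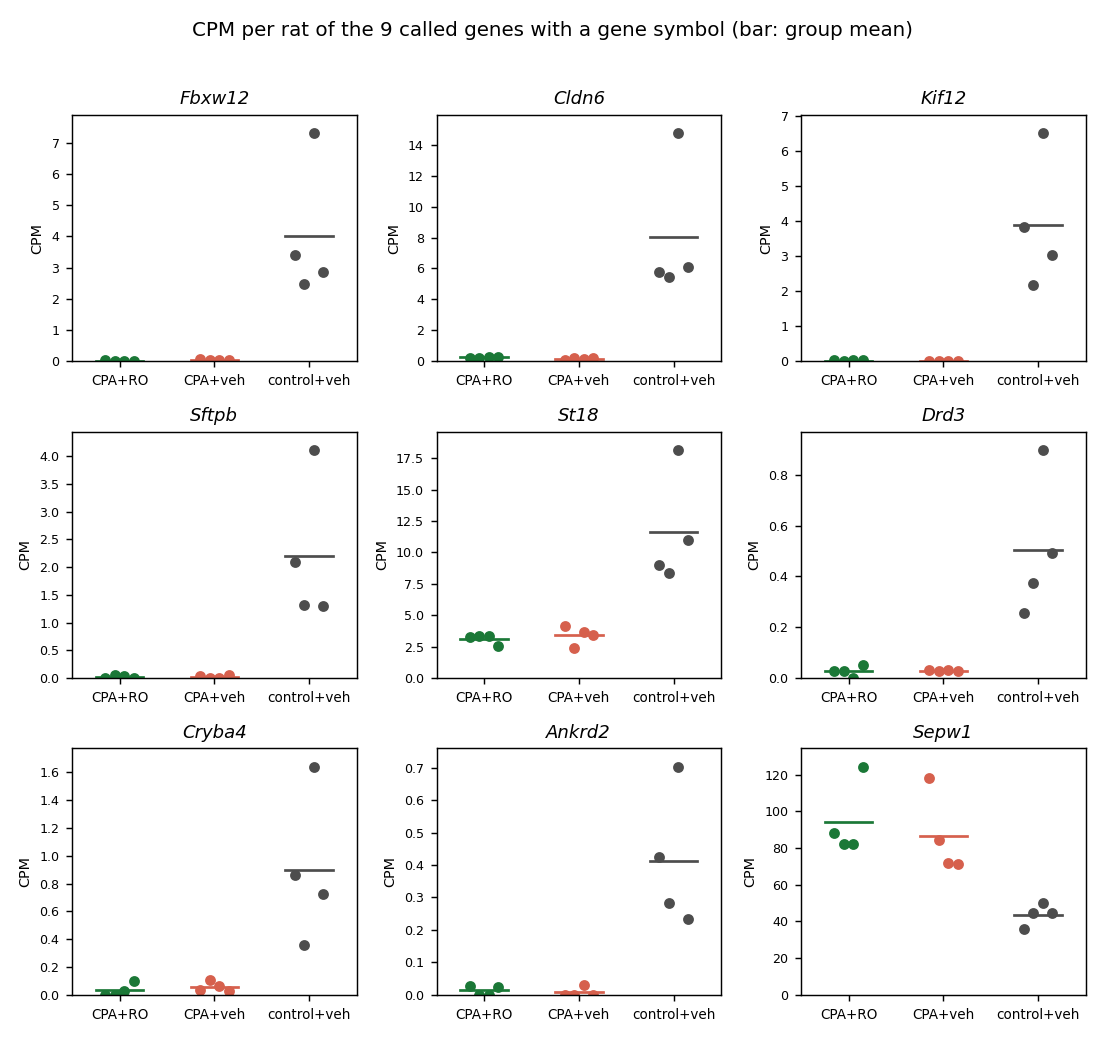
Dots are single rats (CPM) in CPA+RO, CPA+veh and control+veh for the 9 called genes with symbols, and bars are group means. For the 8 lower genes the CPA+RO rats lie at or near 0 (St18 at 2.57 to 3.38 CPM), beside the CPA+veh rats and below all control+veh rats, and for Sepw1 they lie at 82.1 to 124 CPM, above all control+veh rats.

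Both higher genes were raised moderately. Sepw1, the gene of the small selenoprotein W (Selenow in GRCr8), had 88.0, 82.1, 82.3 and 124 CPM in CPA+RO, against 35.6, 44.7, 49.9 and 44.5 CPM in control+veh. It rose to 94.2 ± 20.3 CPM in CPA+RO, against 43.7 ± 5.92 CPM in control+veh (SD, n = 4 each), with a log2 fold change of 1.11 (SE 0.17, adjusted p = 0.0164 in edgeR). It was the only called member of 22 selenoprotein genes, whose median log2 fold change was -0.03. LOC103691283, a long noncoding RNA named here after its values were seen, had 1.45, 1.01, 1.25 and 0.865 CPM in CPA+RO, against 0.397, 0.309, 0.391 and 0.319 CPM in control+veh (log2 fold change 1.69, SE 0.27, adjusted p = 0.0229 in edgeR). Sepw1 lost its call without control+veh replicates 1, 2 or 4 (adjusted p = 0.0729, 0.0515 and 0.0591 in edgeR), and LOC103691283 without any 1 control+veh library or without CPA+RO replicates 1, 2 or 3 (0.0577 to 0.109). Accordingly 0 genes were called higher without control+veh replicates 1, 2 or 4, and 1 without control+veh replicate 3 or CPA+RO replicates 1, 2 or 3. Other methods lost these calls too. Sepw1 lost its call in edgeR with robust dispersions (adjusted p = 0.0621) and in limma on log2(RPKM + 0.1) without a filter (0.125). LOC103691283 lost its call with limma-voom (0.117) and in limma on log2(RPKM + 1) (0.0884) or unfiltered log2(RPKM + 0.1) (0.0991).

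The vehicle-treated CPA rats show which of these differences were also there without the agonist. CPA+veh against control+veh had 22 called genes (0.115% of those tested), and 19 of the 21 genes called in CPA+RO were called there in the same direction, 17 lower and 2 higher. Both comparisons use the same control+veh libraries, so this count is not independent support for either. Side by side, the log2 fold changes in CPA+RO and in CPA+veh were -5.00 and -5.64 for Cldn6, -6.61 and -6.55 for Sftpb, -1.89 and -1.77 for St18, -4.12 and -4.04 for Drd3, and 1.11 and 0.98 for Sepw1. Compared directly, CPA+RO against CPA+veh had no gene past the threshold in edgeR (0 called, 0%), the smallest adjusted p was 0.876, and 842 genes (4.41%) had an unadjusted p under 0.05. DESeq2 and limma-voom called 0 genes as well, while limma on log2(RPKM + 0.1) without a filter called 3 genes of very few counts that the filter of the main test removes. A p that misses the threshold does not show that both CPA groups were alike.

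Called in CPA+RO and not in CPA+veh were 2 genes, both without a gene name, and this count was 0 to 9 with 1 library left out (9 without CPA+veh replicate 1) and 29 with DESeq2. LOC103693999 had 0.891, 0.901, 0.506 and 1.04 CPM in CPA+RO, 4.08, 0.773, 1.47 and 1.23 CPM in CPA+veh, and 6.76, 3.63, 6.03 and 4.85 CPM in control+veh. It was lower in CPA+RO than in control+veh (log2 fold change -2.66, SE 0.42, adjusted p = 0.0208 in edgeR), in CPA+veh the estimate was -1.5 (adjusted p = 0.279), and CPA+RO against CPA+veh gave an unadjusted p of 0.0153. LOC108350082 had log2 fold changes of -3.12 in CPA+RO (adjusted p = 0.042 in edgeR) and -2.81 in CPA+veh (adjusted p = 0.0695). In LOC103693999 CPA+veh replicate 1 lay among the control+veh rats and the other 3 CPA+veh rats near CPA+RO, and neither gene differed between both CPA groups after adjustment. LOC103693999 lost its call without any 1 CPA+RO library or without control+veh replicates 1, 3 or 4 (adjusted p = 0.0545 to 0.109), and LOC108350082 without any 1 CPA+RO library, CPA+veh replicate 1 or control+veh replicates 1, 3 or 4 (0.0548 to 0.192).

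Called in CPA+veh and not in CPA+RO were 3 genes, none of which differed between the CPA groups after adjustment. Cbln1, cerebellin 1, a secreted organizer of synapses, had 15.5, 12.7, 14.7 and 13.5 CPM in CPA+RO, 11.5, 12.1, 11.8 and 13.8 CPM in CPA+veh, and 21.9, 18.5, 20.7 and 16.5 CPM in control+veh. Its log2 fold change was -0.46 in CPA+RO (SE 0.10, adjusted p = 0.157 in edgeR) and -0.66 in CPA+veh (adjusted p = 0.0121), and the CPA+RO rats still lay below every control+veh rat. With DESeq2, Cbln1 was called in CPA+RO too (adjusted p = 0.00539). LOC103694404, a ribosomal protein pseudogene (Rpl39-ps14 in GRCr8) whose reads may be shared with its parent gene, averaged 0.322 ± 0.101 CPM in CPA+RO, 0.664 ± 0.240 CPM in CPA+veh and 0.113 ± 0.0144 CPM in control+veh (SD, n = 4 each). Its log2 fold change was 1.5 in CPA+RO (adjusted p = 0.241 in edgeR) and 2.55 in CPA+veh (adjusted p = 0.00516), with an unadjusted p of 0.00492 between the CPA groups. Ppial4g, of the cyclophilin family with many near copies, had log2 fold changes of 1.61 in CPA+RO (adjusted p = 0.0592 in edgeR) and 1.68 in CPA+veh (adjusted p = 0.0475). Ppial4g was called in CPA+RO as well with DESeq2 (adjusted p = 0.00281), without a filter (0.0455) and with log2(RPKM + 0.1) or log2(RPKM + 1) (0.0195 and 0.0436). It stayed uncalled in CPA+RO in 24 of 29 alternatives.

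Genes that stood apart only with the agonist were sought by position rather than by a test. Every CPA+RO library lay above all 8 others in 20 genes (0.105%) and below all 8 others in 36 genes (0.189%). None of these was called against control+veh or against CPA+veh. If the groups did not differ, chance ordering of the libraries would give at least as many such genes in each direction. The counts of 20 and 36 are therefore no excess of genes that stand apart with the agonist. With a mean of at least 1 CPM there were 15 above and 26 below, of which genes with symbols among the 8 of smallest p in each direction are described. These genes were picked for that separation, so it is a description of them and not a finding.

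The genes with every CPA+RO rat above the 8 others come first. Pcdh11x, an X-linked protocadherin of the brain, had 49.6, 37.1, 39.9 and 37.6 CPM in CPA+RO, 31.6, 23.5, 32.9 and 35.3 CPM in CPA+veh, and 26.2, 29.5, 22.9 and 32.1 CPM in control+veh (log2 fold change over control+veh 0.57, adjusted p = 0.225 in edgeR and 0.0125 in DESeq2). Pcdhga8, of the gamma-protocadherin cluster whose members share 3′ exons and so cannot be counted apart with certainty, had a log2 fold change of 0.47. Sema5b, a semaphorin that guides axons, had 27.1, 24.4, 25.5 and 24 CPM in CPA+RO, 20.3, 21.3, 23.4 and 22.3 CPM in CPA+veh, and 20.6, 21.3, 22.1 and 22.5 CPM in control+veh (log2 fold change 0.22). Atp6v0a1, a membrane subunit of the proton pump that acidifies synaptic vesicles and lysosomes, had 742 to 776 CPM in CPA+RO, 673 to 734 CPM in CPA+veh and 652 to 723 CPM in control+veh (log2 fold change 0.13). Tmem74, a lysosomal membrane protein linked to autophagy, had a log2 fold change of 0.18, and Tmem63c, of a family of mechanically gated channels, one of 0.10. Rimbp3, known from testis, had 3.68 to 4.02 CPM in CPA+RO and a log2 fold change of 0.25.

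Other genes had every CPA+RO rat below the 8 others. Rpl30, a protein of the large ribosomal subunit, had 61.4, 60.4, 42.9 and 40.6 CPM in CPA+RO, 106, 88.7, 64.3 and 80.0 CPM in CPA+veh, and 82.9, 91.6, 90.1 and 72.9 CPM in control+veh. Its log2 fold change was -0.72 against control+veh (SE 0.16, adjusted p = 0.158 in edgeR) and -0.72 against CPA+veh (unadjusted p = 0.000382). Rpl30 was picked for lying below both groups, so this unadjusted p is no support. The smallest adjusted p of any gene against CPA+veh was 0.876 in edgeR. Ribosomal protein genes have many near-identical pseudogenes, so this value depends on how shared reads were counted, and among 78 cytosolic ribosomal proteins the median was -0.03 with 25 above and 53 below 0. Igf2, a growth factor made by meninges and vessels, had 53.2, 53.6, 43.7 and 52.4 CPM in CPA+RO, 54.2, 59.0, 64.9 and 89.9 CPM in CPA+veh, and 82.4, 110, 71.6 and 59.9 CPM in control+veh (log2 fold change over control+veh -0.67, adjusted p = 0.351 in edgeR). Igfbp2, which binds insulin-like growth factors, had 15.5 to 19.2 CPM in CPA+RO, 20.8 to 27.9 CPM in CPA+veh and 20.5 to 25.7 CPM in control+veh (log2 fold change -0.38). Msx1, a homeobox factor, had 1.09 to 2.05 CPM in CPA+RO, 2.10 to 3.20 CPM in CPA+veh and 2.21 to 3.11 CPM in control+veh (log2 fold change -0.74). Vtn, vitronectin, an adhesion protein made in brain by pericytes, had 18.0 to 18.7 CPM in CPA+RO, 20.1 to 21.0 CPM in CPA+veh and 19.5 to 27.2 CPM in control+veh (log2 fold change -0.32). The other 3 were Srp19, of the signal recognition particle, at -0.20, Arfip1, which binds small GTPases, at -0.23, and Med7, of the Mediator complex, at -0.26.

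**Figure D3:**
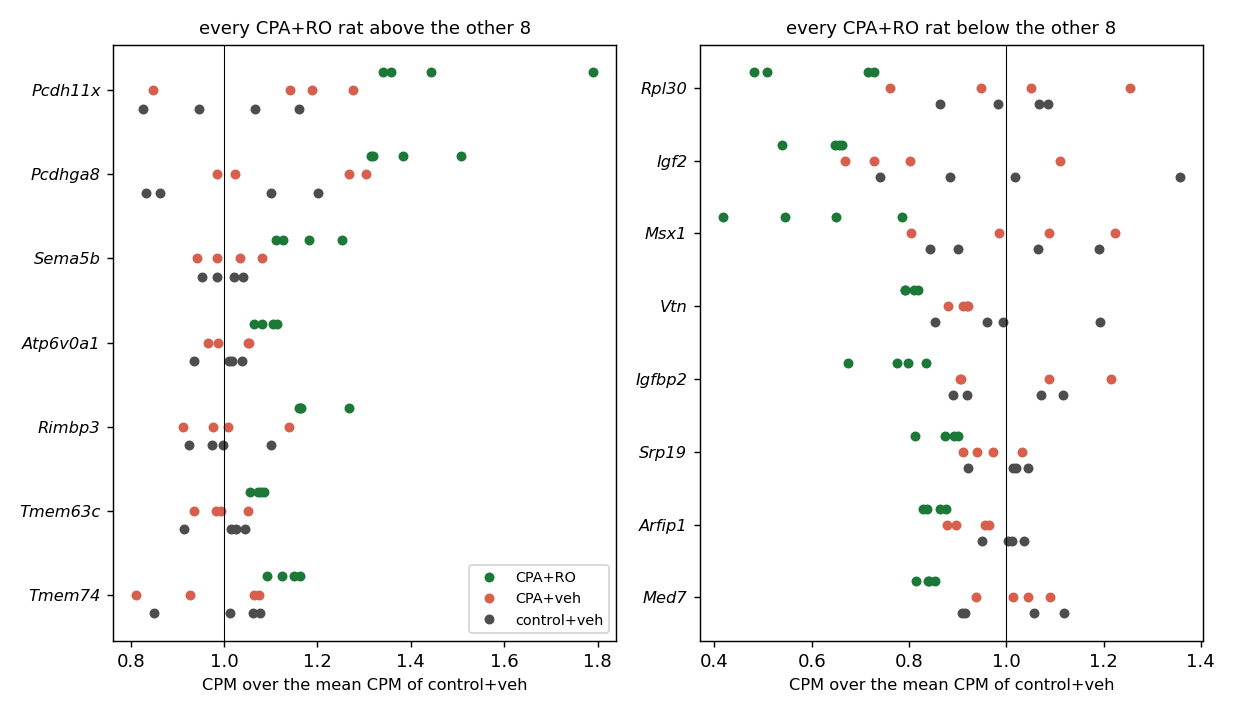
Dots are single rats, with their CPM divided by the mean CPM of control+veh, in rows of CPA+RO, CPA+veh and control+veh for genes above (left) and below (right) the other groups. The CPA+RO dots stand outside the other 8 in each gene because the genes were chosen so, and the gaps are small for most, such as Tmem63c (105 to 108 CPM in CPA+RO).

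Chrm3 is given because hM3Dq derives from the human CHRM3, and reads of a transgene and of the rat gene cannot be told apart in these counts. It had 170, 247, 101 and 167 CPM in CPA+RO, 71.1, 225, 185 and 292 CPM in CPA+veh, and 53.1, 64.9, 55.9 and 58.1 CPM in control+veh. Every CPA+RO rat lay above every control+veh rat, but the spread in the CPA groups was wide and the gene was not called (log2 fold change 1.56, SE 0.33, adjusted p = 0.135 in edgeR). Without CPA+veh replicate 1 in the fit it was called (adjusted p = 0.00745 in edgeR), with the same log2 fold change. Chrm3 was also called with DESeq2 (adjusted p = 0.0048) and in edgeR without a filter (0.0332). The same held in edgeR with CPA+RO and control+veh alone (0.0119) and without CPA+veh replicates 1 and 2 (0.0109). In the other 25 of 30 alternatives run, Chrm3 was not called. Among 5 muscarinic receptor genes 4 lay above 0, among them Chrm1, the main muscarinic receptor of cortex, with a log2 fold change of 0.17.

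The receptor of the agonist did not pass the test. Oxtr had 1.87, 2.85, 3.66 and 4.10 CPM in CPA+RO, 1.79, 2.85, 2.57 and 2.20 CPM in CPA+veh, and 3.01, 2.75, 2.19 and 2.93 CPM in control+veh, and the groups overlapped (log2 fold change over control+veh 0.20, SE 0.22, adjusted p = 0.933 in edgeR). Avpr1a, the V1a vasopressin receptor that oxytocin can also bind, had 0.297 to 0.633 CPM in CPA+RO and 0.435 to 0.823 CPM in control+veh (log2 fold change -0.35). Oxt itself, made in the hypothalamus, was too low to test, with 10 counts over CPA+RO, 14 over CPA+veh and 10 over control+veh. Foxf1, a forkhead factor of mesenchyme, had 530 counts over CPA+RO and 630 over control+veh (log2 fold change -0.23, adjusted p = 0.923 in edgeR). Of the 7 tested genes of the oxytocin and vasopressin system, none had an unadjusted p under 0.05.

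Apart from the genes named above, no member of the 50 gene lists was called, so the lists are described by counts and medians beside all genes, of which 530 (2.78%) were higher and 568 (2.97%) lower at an unadjusted p under 0.05. With 1 library left out, 17 of the 50 list medians changed sign, none of them above 0.0425 in size, and 41 moved by over 1.5 times or changed sign, so small medians describe these rats only. Of 12 serotonin receptors 10 lay above 0, 7 had an unadjusted p under 0.05, all higher, and the median log2 fold change was 0.28 (0.14 in CPA+veh). Htr2c, the Gq-coupled 5-HT2C receptor of neurons, had 87.8, 88.9, 107 and 85.0 CPM in CPA+RO, 58.0, 68.1, 81.8 and 82.3 CPM in CPA+veh, and 71.6, 54.1, 57.8 and 85.4 CPM in control+veh (log2 fold change over control+veh 0.45, adjusted p = 0.57 in edgeR). Its CPA+RO rats overlapped with 1 control+veh rat. Htr2b, a low-level Gq-coupled receptor, had 0.387 to 0.509 CPM in CPA+RO, 0.188 to 0.293 CPM in CPA+veh and 0.156 to 0.335 CPM in control+veh (log2 fold change 0.89). The Gi-coupled receptors Htr1d and Htr1b had log2 fold changes of 0.72 and 0.36, with adjusted p = 0.71 and 0.779 in edgeR. Over the whole list the level per rat was 0.11 to 0.41 in CPA+RO, 0.02 to 0.23 in CPA+veh and -0.06 to 0.06 in control+veh, as the median log2 CPM of members minus the control+veh mean.

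Other receptor lists had medians closer to 0. Of 17 dopamine, adrenergic and histamine receptors 13 lay above 0 (median 0.14), with the histamine H3 autoreceptor Hrh3 at 0.21 and the alpha-1B adrenoceptor Adra1b at 0.31. Of 18 ionotropic glutamate receptor genes 16 lay above 0, at a median of 0.07, and Grin1, the obligatory NMDA receptor subunit, had 580 to 608 CPM in CPA+RO and 505 to 567 CPM in control+veh (log2 fold change 0.14). Metabotropic glutamate receptors had 7 of 8 above 0 (median 0.07), glutamate metabolism and transport genes 14 of 21 (0.04), and GABA-A receptor subunits 10 of 15 (0.04), with Gabra3 at 0.15. Genes of Gq signalling and receptor desensitization had 20 of 25 above 0 (median 0.04), and opioid peptides and receptors 6 of 8 (0.13). None of these genes was called apart from Drd3. Without control+veh replicate 1 the medians were 0.04 for dopamine, adrenergic and histamine receptors, 0.02 for metabotropic glutamate receptors and 0.01 for GABA-A subunits.

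Channel and synapse lists leaned above 0 in CPA+RO, by small amounts. Of 14 voltage-gated sodium channel genes 11 lay above 0 (median 0.11, and 0.01 in CPA+veh), with the beta subunits Scn4b and Scn2b at 0.47 and 0.17, while the peripheral channel Scn10a lay at -1.10. Levels per rat of this list were 0.12 to 0.15 in CPA+RO and -0.18 to 0.06 in control+veh. In CPA+veh, replicates 1 to 4 lay at -0.09, -0.24, 0.17 and 0.24, so the median of 0.01 covers rats on both sides of 0. Of 40 voltage-gated potassium channel genes 30 lay above 0 (median 0.08), with the M-current subunit Kcnq5 at 0.26 and the beta subunit Kcnab3 at -0.27. Inward rectifier, leak and calcium-activated potassium channels had 18 of 28 above 0 (median 0.07), and voltage-gated calcium channels 12 of 17 (0.01), with the beta subunit Cacnb3 at 0.17. Without control+veh replicate 1 the medians were 0.06 for sodium channels, 0.03 for voltage-gated potassium channels and 0.04 for the other potassium channels. Of 5 HCN pacemaker channel genes and partners 4 lay above 0, with Hcn3 at 0.16.

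Synaptic vesicle release genes had 29 of 33 members above 0 (median 0.10, and 0.06 in CPA+veh). In 9 of the 33 all CPA+RO rats lay above all control+veh rats, against 2.83% of all genes. Levels per rat were 0.06 to 0.12 in CPA+RO, -0.14 to 0.14 in CPA+veh and -0.08 to 0.04 in control+veh. Vamp1, a synaptobrevin, had 113 to 144 CPM in CPA+RO and 96.0 to 116 CPM in control+veh (log2 fold change 0.28). The calcium sensor Doc2a and the vesicle protein Sv2a had log2 fold changes of 0.21 and 0.17. Postsynaptic scaffolds had 16 of 18 above 0 (median 0.105). Synapse organizers had 20 of 24 above 0 (median 0.10), where Cbln2 lay at 0.32 and Slitrk1 at 0.23, opposite in sign to Cbln1. Axon guidance ligands and receptors had 39 of 50 above 0 (median 0.07), with Ephb6 and Robo1 at 0.27 each and the guidance cue Ntn1, netrin 1, at -0.68. The axon guidance median was 0.04 without control+veh replicate 1.

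Neuronal marker transcripts lay above 0 as well, with no gene called, and their part in the channel and synapse lists was not tested. Markers of excitatory cortical neurons had 11 of 12 above 0 (median 0.14, and 0.17 in CPA+veh), at levels per rat of 0.07 to 0.24 in CPA+RO, 0.08 to 0.26 in CPA+veh and -0.04 to 0.06 in control+veh. Slc17a7, the vesicular glutamate transporter VGLUT1, had 1497, 1329, 1377 and 1463 CPM in CPA+RO, against 1258, 1315, 1252 and 1185 CPM in control+veh (log2 fold change 0.18). The deep-layer factor Fezf2 and the cortical factor Tbr1 had log2 fold changes of 0.23 each, and of 17 cortical layer factors 10 lay above 0. Interneuron markers had 9 of 14 above 0 (median 0.04), with the vesicular GABA transporter Slc32a1 at 0.20, and striatal markers 8 of 12 (0.06). The median of the excitatory markers was 0.09 without CPA+RO replicate 1.

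**Figure D4:**
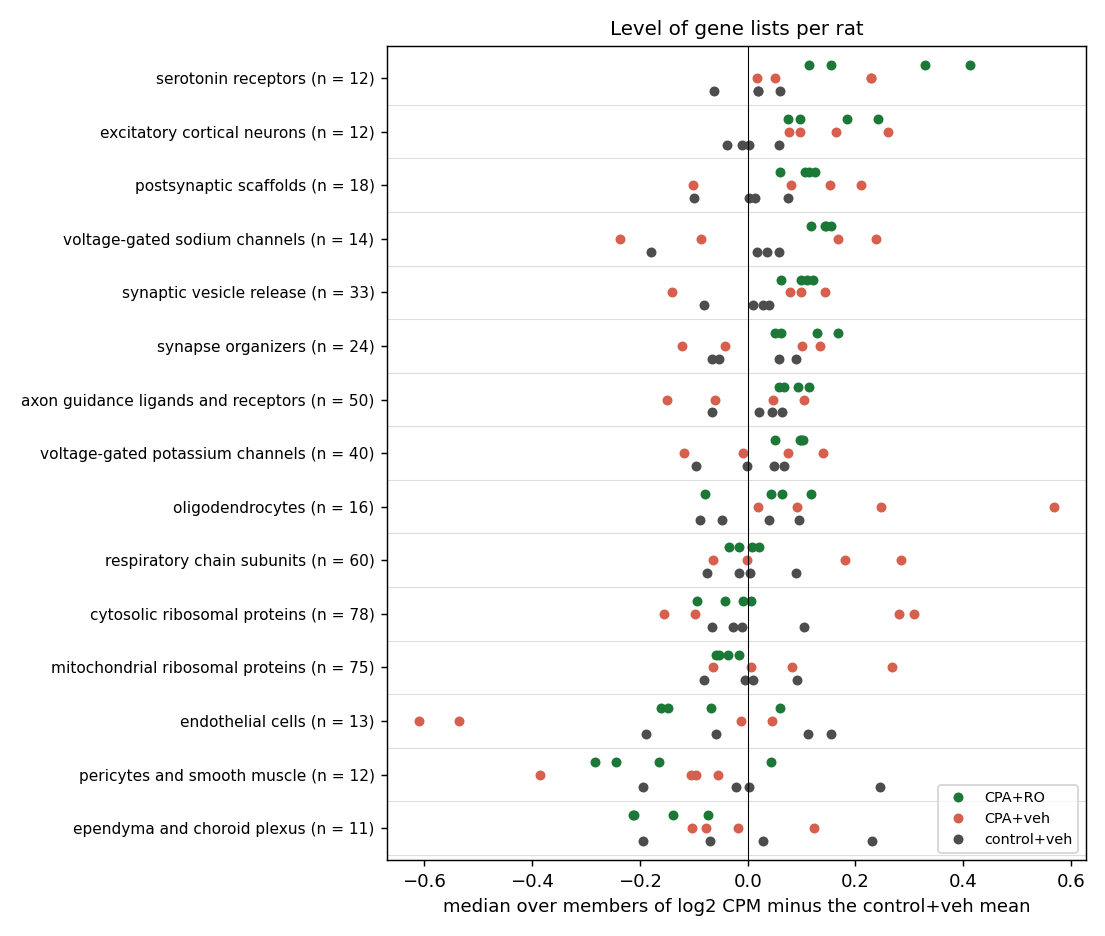
Dots are single rats, with the median over a list's members of log2 CPM minus the control+veh mean, in rows of CPA+RO, CPA+veh and control+veh for 15 gene lists. CPA+RO rats lie above 0 for the 8 receptor, channel and synapse or neuron lists at the top, with serotonin receptors at 0.11 to 0.41, and mitochondrial ribosomal proteins lie at -0.06 to -0.02.

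Lists of energy metabolism and translation lay near 0 in CPA+RO. Respiratory chain subunits had 26 of 60 above 0 (median -0.01, and 0.12 in CPA+veh), ATP synthase subunits 5 of 16 (-0.02, and 0.11 in CPA+veh), and mitochondrial ribosomal proteins 21 of 75 (-0.04, and 0.06 in CPA+veh). In these lists the CPA+veh rats were spread more widely than the CPA+RO rats, at levels of -0.06 to 0.28 against -0.03 to 0.02 for the respiratory chain. CPA+veh replicates 1 to 4 lay at 0.18, 0.28, -0.001 and -0.06 for the respiratory chain. For ATP synthase they lay at 0.15, 0.34, -0.01 and -0.07. The CPA+veh medians thus cover rats on both sides of 0. Rpl39, another ribosomal protein with near copies, had a log2 fold change of -0.19. Cholesterol synthesis genes had 19 of 25 above 0 (median 0.08, and 0.03 without control+veh replicate 3), with Ebp, a sterol isomerase of the pathway, at 0.29. Steroid hormone metabolism (11 of 21 above 0), amino acid metabolism (19 of 37) and axonal degeneration and cytoskeleton genes (20 of 27) had medians of 0.01, 0.01 and 0.07.

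No activity or stress gene was called at the time of sampling. The tissue of every group came from slices after recordings, made on differing days after treatment had ended. These levels need not be those of the living brain or of the treatment period. Immediate early genes had 15 of 23 above 0 (median 0.02) with none at an unadjusted p under 0.05, and Npas4, an activity-dependent neuronal factor, had 139 to 201 CPM in CPA+RO and 139 to 167 CPM in control+veh. Late activity-induced genes had 8 of 18 above 0 (median -0.01), heat shock proteins and chaperones 11 of 21 (0.00), with Hsp90aa1 at -0.15, and glucocorticoid responsive genes 10 of 16 (0.02). Interferon response and antigen presentation genes had 12 of 32 above 0 (median -0.13), with wide spread among rats (-0.33 to 0.21 in CPA+RO, -0.17 to 0.24 in control+veh) and Stat2 at 0.22. The interferon median was -0.02 without control+veh replicate 1 and -0.25 without CPA+RO replicate 4. Circadian clock genes had 10 of 18 above 0 (median 0.04), with Per2 at 0.23 and Dbp at 0.28.

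Glial lists had medians near 0 and vascular lists medians below 0, with no gene called. Oligodendrocyte markers had 10 of 16 above 0 (median 0.02, and 0.25 in CPA+veh), oligodendrocyte precursors 7 of 7 (0.04), astrocytes 8 of 13 (0.02) and microglia 7 of 14 (0.00). For oligodendrocytes, CPA+veh replicates 1 to 4 lay at levels of 0.57, 0.25, 0.09 and 0.02. The other groups lay at -0.08 to 0.12 (CPA+RO) and -0.09 to 0.10 (control+veh). Endothelial markers had 4 of 13 above 0 (median -0.07), with the sialomucin Emcn at -0.40, and blood cell markers 4 of 9 (-0.03), with the T-cell gene Cd3e at -0.90. Pericyte and smooth muscle markers had 1 of 12 above 0 (median -0.14, and -0.14 in CPA+veh), with Des, desmin, at -0.30, at levels per rat of -0.28 to 0.04 in CPA+RO and -0.19 to 0.25 in control+veh. Meningeal and fibroblast markers had 5 of 14 above 0 (median -0.10), with Crabp2 at -0.65 and the collagen Col1a1 at -0.34, and Igf2 is a member of this list as Vtn is of the pericyte list. The pericyte median was -0.05 without control+veh replicate 2 and -0.22 without control+veh replicate 1, and the endothelial median -0.17 without CPA+RO replicate 4 and 0.00 without control+veh replicate 4. Of the epithelial markers, Epcam, an epithelial adhesion protein at 0.519 to 0.744 CPM in CPA+RO and 0.643 to 1.36 CPM in control+veh, had a log2 fold change of -0.72.

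Ependymal and choroid plexus markers had 3 of 11 above 0 (median -0.23, and -0.12 without control+veh replicate 2), with no gene called. Ttr, transthyretin of the choroid plexus, had 1.26, 1.42, 1.01 and 0.483 CPM in CPA+RO, 1.005, 1.28, 1.5 and 0.954 CPM in CPA+veh, and 0.425, 0.232, 0.391 and 0.348 CPM in control+veh (log2 fold change over control+veh 1.58, adjusted p = 0.103 in edgeR). This is a very low level for a transcript that choroid plexus makes in abundance, and without CPA+RO replicate 4 the gene was called (adjusted p = 0.0109). Rsph1, a radial spoke protein of motile cilia, had 1.44, 1.72, 1.58 and 1.58 CPM in CPA+RO, 2.29, 2.19, 2.76 and 2.5 CPM in CPA+veh, and 2.30, 1.77, 2.11 and 1.92 CPM in control+veh. Its CPA+RO rats lay below and its CPA+veh rats above the control+veh mean, with log2 fold changes of -0.36 and 0.26, neither called, and an unadjusted p of 0.000393 between the CPA groups (adjusted p = 0.876 in edgeR).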

How the data were processed

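RNA from mPFC of 12 rats (4 per group) was sequenced by the authors from stranded poly(A) libraries. Per the labels and the submitters' processing notes, bcl2fastq, FastQC, STAR and SAMtools were used with rat build rn6 (Rnor_6.0), with versions not given in sources used here. The deposited files give raw counts per gene and RPKM values, read numbers scaled by gene length and library size, made by the authors. Of the counts from 1 to 99, 90.1% are even, so that both mates of a pair appear to have been counted, and a fit on halved counts was added after seeing the data.

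Counts were tested with edgeR 4.0.16 in R 4.3.3 (TMM scaling, filterByExpr, quasi-likelihood test) in 1 fit of the 12 libraries, with Benjamini-Hochberg adjustment over 19094 genes and a threshold of 0.05. DESeq2 1.42.0 and limma 3.58.1 served as alternatives. RPKM values were used only in alternatives, as log2(RPKM + 0.1) or log2(RPKM + 1), a scale that understates changes of low genes. Levels are TMM-scaled CPM, with SD over 4 rats. Intervals on pooled counts are exact binomial intervals and cover counting error only, as the reads carry no molecular identifiers. The scripts were tested on simulated data.

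The members and gene lists were chosen with earlier results of these data known. The text names all called genes with symbols, the 4 called LOC genes of smallest p, genes called in only 1 of both CPA comparisons, the genes with symbols outside all 8 other rats of smallest p at a mean of at least 1 CPM, members of the lists with the smallest p, and receptor genes. Some results under this rule are not reported here. No label says that replicate numbers pair the rats. Deviations of same-numbered CPA+RO and control+veh libraries correlated at 0.05, 0.02, -0.05 and -0.04. Such correlations over all genes would not show a link confined to few genes. The rats came from 2 cohorts, which no label ties to libraries. Promoters are from RefSeq (GRCr8), and 23199 of the 29009 gene IDs matched its gene table.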

Additional observations from a re-analysis of the deposited data

Results flagged for a closer look

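In groups of 4, a rat was marked where its gap to the nearest other rat was a larger share of the group's range than Dixon's 95% critical value, which chance alone gives in about 1 in 20 groups. Among the called genes the marked rat was control+veh replicate 3, the highest, for Cldn6 (14.8 CPM, gap 0.93 of the range), LOC103692471 (14.3 CPM, 0.853), LOC103690061 (6.12 CPM, 0.876) and LOC102554241 (3.36 CPM, 0.953). The same rat was highest for Stat2 (46.5 CPM, 0.866) and for Ak7 (8.62 CPM, 0.926). In CPA+RO, replicate 4 was high for Sepw1 (124 CPM against 82.1 to 88.0 in the other 3, gap 0.862) and Cd3e (0.56 CPM, 0.908) and low for St18 (2.57 CPM, 0.87).

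CPA+RO replicate 3 was high for Rimbp3 (4.02 CPM, gap 0.945) and low for Igf2 (43.7 CPM, 0.879). CPA+RO replicate 2 was high for the serotonin receptor Htr1d (1.94 CPM against 0.992 to 1.10 in the other 3, gap 0.885) and for Scn4b (28.6 CPM, 0.945). In control+veh, replicate 2 was high for Scn2b (333 CPM, 0.9), and replicate 1 was high for Mboat7 (30.8 CPM, 0.896).

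Rsph1, of motile cilia, went opposite ways in both CPA groups: every CPA+RO rat lay below and every CPA+veh rat above the control+veh mean, with a log2 difference of -0.623 between CPA+RO and CPA+veh (unadjusted p = 0.000393 and adjusted p = 0.876 in edgeR).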

How the results depend on the processing

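None of the 21 called genes changed direction in the 26 to 30 alternatives that tested it, and 13 of them kept their call in each of these. The main test called 2 genes higher and 19 lower, against 22 and 61 with DESeq2, 1 and 19 with limma-voom, 4 and 29 with limma-voom and sample weights, 12 and 36 without a filter, 2 and 11 at CPM of at least 1 in 4 libraries, 5 and 27 with CPA+RO and control+veh alone, 1 and 19 with robust dispersions, and 6 and 30 at an adjusted p under 0.1. Genes called in both CPA comparisons numbered 19, against 54 with DESeq2, 5 with sample weights, 12 with log2(RPKM + 1) and 11 at the CPM filter. The replicate block, although no label says that the numbers pair the rats, gave 3 higher and 18 lower genes, of which 1 and 15 were among the 21. A length offset with the block gave 4 and 19. Under the block Sepw1 had an adjusted p of 0.0638. Leaving out 1 library gave 0 to 3 higher and 14 to 24 lower genes, 14 to 19 in both, and 0 between CPA groups, where limma on log2(RPKM + 0.1) without a filter called 3. Alternatives added after seeing the data gave 5 and 23 without CPA+veh replicates 1 and 2, and 2 and 20 on halved counts. Of the 26 alternatives that tested Drd3, log2(RPKM + 0.1) without a filter lost its call (adjusted p = 0.0955). Rpl30, picked for its separation, gained a call with DESeq2 (0.00188), without a filter (0.0455) and under the block (0.0428). It stayed uncalled in the other 27 of 30 alternatives. Depth limits the genes with under 20 counts in CPA+RO, whose fold changes rest on the prior count.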

Other observations

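Several genes outside the naming rule, chosen after their values were seen, did not overlap between CPA+RO and control+veh and were not called in the main test. Most alternatives left them uncalled too: 25 of 30 for Mboat7 and Erp27, and 27 of 30 for Ndst2 and Ak7. The calls listed below are the exceptions. Mboat7, an acyltransferase of phosphatidylinositol remodelling, had 90.4, 35.8, 51.0 and 50.2 CPM in CPA+RO, 43.9, 21.4, 35.8 and 31.4 CPM in CPA+veh, and 30.8, 19.6, 19.7 and 18.5 CPM in control+veh (log2 fold change over control+veh 1.36, adjusted p = 0.0953 in edgeR). It was called with DESeq2 (adjusted p = 0.0158), without a filter (0.0227), under the replicate block (0.00102) and under the block with a length offset (0.00064). Ndst2, an enzyme of heparan sulfate sulfation, had 6.15, 4.82, 6.19 and 5.85 CPM in CPA+RO, 7.60, 8.09, 3.02 and 2.82 CPM in CPA+veh, and 0.61, 2.55, 0.456 and 1.66 CPM in control+veh (log2 fold change 2.12, adjusted p = 0.16 in edgeR), and was called with DESeq2 (0.0333), with limma-voom and sample weights (0.0327) and without a filter (0.0474).

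Among genes lower in CPA+RO, Erp27, an endoplasmic reticulum protein, had 0.268 to 0.942 CPM in CPA+RO, 0.0942 to 1.57 CPM in CPA+veh and 2.82 to 9.02 CPM in control+veh (log2 fold change over control+veh -2.88, adjusted p = 0.104 in edgeR). Erp27 was called with DESeq2 (adjusted p = 0.0174), without a filter (0.0296), with CPA+RO and control+veh alone (0.0241) and without CPA+veh replicate 1 (0.0104). Duoxa2, a maturation factor of dual oxidase, had a log2 fold change of -2.74 (adjusted p = 0.192 in edgeR), and Ak7, an adenylate kinase of cilia, one of -2.37 (adjusted p = 0.16), with a call for Ak7 without a filter (0.0474) and without CPA+veh replicate 1 (0.0326). Control+veh replicate 3 was the highest rat in each of these 3 genes, as it was in 18 of the 19 genes called lower.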
